A study of Mus musculus with 22 samples.

Results

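Aminoacyl-tRNA synthetases join each amino acid to its tRNA. The 28 genes described here are those on the array whose symbols name such an enzyme by its amino acid, such as Gars for glycine, together with the phenylalanine enzyme's subunits Farsa and Farsb, the glutamate and proline enzyme Eprs, and the scaffold proteins Aimp1 and Aimp2. They were chosen by symbol, not by level, from 12394 genes that had a probe set of 1 symbol, and were measured by 51 probe sets. 26 of them were among the 6437 genes that passed the filter on dim probe sets (log2 above 4 on at least 4 arrays) and were tested, through 43 probe sets that passed. Ears2 and Pars2, mitochondrial enzymes, did not pass it. Family members without a probe set of their own symbol are not analysed here.

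The study compared B cells from C57Bl/6 mice at 3 stages of lymphoma development driven by the Eμ-Myc transgene, which expresses Myc from an immunoglobulin heavy chain enhancer in B lineage cells. The wild type group (n = 4) carried no transgene, the premalignant group (n = 5) held transgenic B cells before lymphoma, and both came from littermates 4 to 6 weeks old. The malignant group (n = 13) held lymphomas of transgenic mice, each from a separate mouse. The lymphoma labels repeat the age of the younger mice, which is not used here. Cells were taken from bone marrow or spleen with beads against B220 or IgM. The titles of the wild type arrays name B220+, whereas those of the premalignant and malignant arrays name no marker. Which tissue gave each array is not stated, so tissue cannot be told apart from stage. Whether each wild type and premalignant array came from a different mouse is not stated either, so p-values measure the spread between these arrays. Values are GCRMA intensities from MOE430A arrays, given as log2, 1 array per sample, and the number of arrays limits the precision.

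Each enzyme recognises a single amino acid and its tRNAs, except Eprs, which carries both a glutamate and a proline enzyme on 1 chain. Most amino acids have separate nuclear genes for the cytosolic and the mitochondrial enzyme, the latter usually marked by a 2 in its symbol, whereas Gars and Kars serve both compartments. In the cytosol some of the enzymes, Eprs, Iars, Lars, Qars, Rars and Kars among the genes here, are bound with Aimp1 and Aimp2 in the multisynthetase complex. Myc is known to drive ribosome production and protein synthesis, and the transcription factor ATF4 is known to raise many cytosolic synthetase genes when amino acids are short.

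Myc stood at 7.04 ± 0.27 (SD, n = 4) in wild type cells, 9.97 ± 0.26 (n = 5) in premalignant cells and 9.59 ± 0.59 (n = 13) in lymphomas, with no overlap between wild type and either transgenic group. The B cell markers Cd79a and Cd79b were bright on every array, with lowest log2 values of 10.8 and 10.0. 0 of the 6 tested B cell markers were higher and 6 of 6 were lower in lymphomas than in wild type cells, among them Ptprc, which encodes B220. Pax5 lay below log2 4 in every group mean. Of 7 stroma and endothelium markers, 6 were tested, and 4 rose and 1 fell from premalignant cells to lymphomas. Their summed linear intensity was 253 to 290 in wild type cells, 132 to 187 in premalignant cells and 500 to 3056 in lymphomas, with Cdh5 below log2 4 in every group mean. 7 of 7 T cell markers on the array lay below log2 4 in every group mean. Summed macrophage markers were 831 to 2254 in wild type, 409 to 1715 in premalignant and 875 to 5135 in malignant arrays, with 2 of 7 higher and 2 lower from wild type to malignant. Neutrophil markers summed to 78.0 to 644, 451 to 937 and 67.9 to 6164, with 0 of 5 passing in any comparison. Plasma cell markers summed to 2345 to 4262, 732 to 2856 and 127 to 638, with 2 of 3 lower from wild type to malignant. Natural killer cell markers summed to 44.1 to 171, 35.4 to 386 and 27.7 to 31.2, with 2 of 2 lower from wild type to malignant. Erythroid markers summed to 41.3 to 754, 38.5 to 2188 and 32.9 to 40.4, with the 1 tested lower from wild type to malignant. The difference between the 3′ and 5′ probe sets of beta-actin is a measure of RNA integrity. It was 0.64 to 0.86 in wild type, 0.58 to 0.81 in premalignant and 1.29 to 2.49 in malignant arrays, so lymphomas did not overlap the rest. The same difference for Gapdh was 0.19 to 0.75, 0.085 to 0.41 and 0.62 to 1.45, so there lymphomas overlapped wild type arrays. The part of these shifts in the results was not tested between stages. In bulk samples a change in the mix of cells and a change in RNA per cell cannot be told apart.

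From wild type cells to lymphomas, synthetase transcripts rose across most of the family. 21 of 26 tested genes were higher and 0 were lower in lymphomas (limma, with p adjusted by Benjamini-Hochberg across the 6437 genes and called under 0.05), which is 80.8%, where 31.8% of all tested genes were higher and 29.7% lower. The median log2 change was 0.89 (1.86-fold), against 0.041 over all genes. In 12 genes every lymphoma lay above every wild type array, a pattern shown by 18.3% of all genes, and the change was at least 2-fold in 10 of 26, against 17.1% of all genes. Through each gene's probe set of highest mean, Gars, Eprs, Rars, Tars, Aars and Lars, in that order, rose the most. The order depends on the probe set. Other probe sets gave log2 2.03 and 1.06 for Eprs, 1.70 for Aimp2 and 1.45 for Aars. Sars, Vars, Wars, Hars2 and Fars2 did not pass the test.

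**Figure D1:**
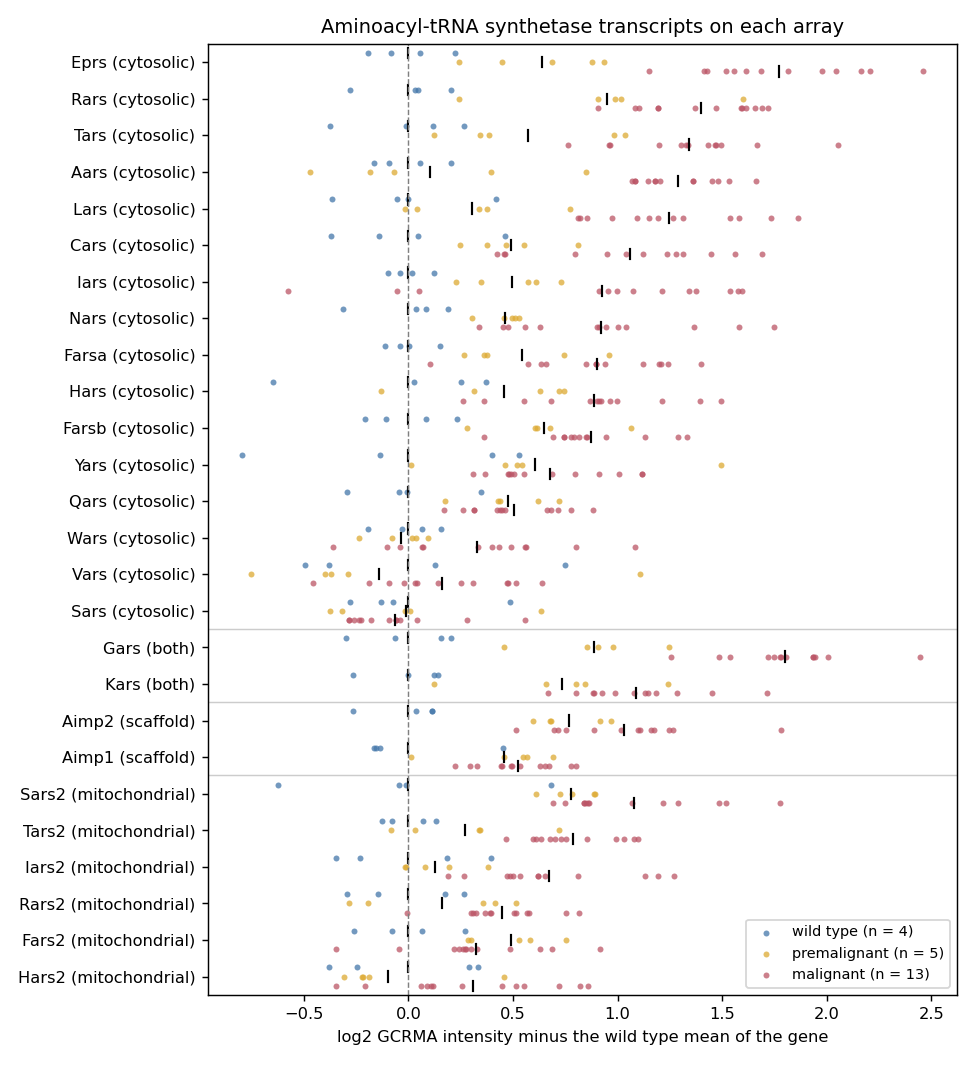
Log2 intensity of the 26 tested genes on each of the 22 arrays, minus the gene's wild type mean. Points are arrays, black bars are group means, and genes are ordered within each class by the change from wild type to malignant. Lymphomas lie to the right of 0 for most genes, Sars is centred near 0 at each stage, and 3 lymphomas lie far to the left of the other 10 for Iars.

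Gars, the glycine enzyme of both compartments, had wild type values of 7.64, 7.69, 7.18 and 7.42, premalignant values of 8.73, 8.39, 8.46, 8.33 and 7.94, and lymphoma values from 8.74 through a median of 9.26 to 9.93. The stages did not overlap at either step. Gars rose 1.85-fold at the first step (log2 0.89, SE 0.18, adjusted p = 0.0046), 1.88-fold at the second (0.91, SE 0.15, adjusted p = 0.00012) and 3.48-fold from wild type to malignant (1.80, SE 0.16, adjusted p = 2.6e-08).

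Eprs had wild type values of 7.21, 6.79, 6.90 and 7.04, premalignant values of 7.43, 7.92, 7.86, 7.67 and 7.22, and lymphoma values from 8.13 through 8.67 to 9.44. On this representative probe set the groups were again fully ordered, although the lowest premalignant and the highest wild type array almost met. On 1452157_at premalignant arrays reached 7.63, within the lymphoma range of 7.30 to 8.33. On 1452158_at wild type arrays reached 6.12, premalignant arrays ran from 5.82 to 7.01 and lymphomas from 6.28. The first step passed on 1452157_at (limma, adjusted p = 0.0093) but not on 1452158_at (adjusted p = 0.23). On the representative probe set Eprs rose 1.56-fold at the first step (adjusted p = 0.019) and 2.19-fold at the second (adjusted p = 8.5e-05). The change was 3.41-fold in all (log2 1.77, SE 0.19, adjusted p = 3.6e-07). The first-step call was lost when wild type replicate 2, wild type replicate 3 or premalignant replicate 3 was left out (adjusted p = 0.051, 0.053 and 0.052).

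Rars, the arginine enzyme of the complex, had wild type values of 7.02, 7.19, 6.71 and 7.03 and premalignant values of 8.58, 7.97, 8.00, 7.89 and 7.23. Its lymphoma values ran from 7.89 through 8.46 to 8.71, above every wild type array but within reach of the premalignant ones. It rose 1.93-fold at the first step (adjusted p = 0.014), 1.36-fold at the second (adjusted p = 0.046) and 2.64-fold in all (adjusted p = 3.7e-07). The second-step call was lost without premalignant replicate 2, 3, 4 or 5, with adjusted p up to 0.21.

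Aars, the alanine enzyme, had wild type values of 6.37, 6.52, 6.30 and 6.67 and premalignant values of 7.31, 6.86, 6.39, 6.28 and 5.99, which overlap. Its lymphoma values lay in a narrow band from 7.53 through 7.66 to 8.12, above every array of the other stages. The first step gave log2 0.10 (SE 0.24, adjusted p = 0.79) and the second a 2.28-fold rise (log2 1.19, SE 0.16, adjusted p = 1.6e-05).

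Lars, the leucine enzyme, was likewise at log2 0.30 (SE 0.20, adjusted p = 0.30) for the first step and rose 1.92-fold at the second (adjusted p = 0.00032). Its wild type values were 6.89, 7.31, 6.84 and 6.53, its premalignant values 7.66, 7.26, 7.23, 6.93 and 6.88, and its lymphoma values ran from 7.70 through 8.08 to 8.75. Lymphomas lay above all other arrays, while the other stages overlapped. Tars, the threonine enzyme, went from 6.21 ± 0.27 (SD, n = 4) through 6.79 ± 0.41 (n = 5) to 7.55 ± 0.33 (n = 13). It rose 1.70-fold at the second step (limma, adjusted p = 0.0024) and 2.53-fold in all (adjusted p = 4.7e-06). Its first-step log2 change of 0.57 did not pass (adjusted p = 0.080), and passed without premalignant replicate 5 (adjusted p = 0.043).

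To show the sequence at the start of these genes, the stretch from 150 bases before to 30 bases after the RefSeq transcription start is shown. It is given for some of the genes that carry a motif searched for here, in order of their change from wild type to malignant. Capitals mark CACGTG, the palindromic E-box to which Myc can bind, and TGATGNAA, the core of the amino acid response element used by ATF4, searched on both strands. All sequences are RefSeq GRCm38.p6, written 5′ to 3′ in the direction of the gene.
Gars, chr6:55037851-55038030, plus strand: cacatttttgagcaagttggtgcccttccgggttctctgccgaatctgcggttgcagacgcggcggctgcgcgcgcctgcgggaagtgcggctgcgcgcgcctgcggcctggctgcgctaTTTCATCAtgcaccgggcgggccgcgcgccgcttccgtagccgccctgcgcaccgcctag
Tars, chr15:11399629-11399808, minus strand: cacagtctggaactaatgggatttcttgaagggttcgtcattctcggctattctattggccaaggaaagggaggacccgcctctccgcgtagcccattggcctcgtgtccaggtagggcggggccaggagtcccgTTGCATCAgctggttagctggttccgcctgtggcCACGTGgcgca
Aars, chr8:111033692-111033871, plus strand: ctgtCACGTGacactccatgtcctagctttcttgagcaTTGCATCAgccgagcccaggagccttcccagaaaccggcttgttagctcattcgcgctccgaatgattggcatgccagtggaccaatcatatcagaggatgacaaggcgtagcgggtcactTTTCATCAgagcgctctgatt
Iars, chr13:49681980-49682159, plus strand: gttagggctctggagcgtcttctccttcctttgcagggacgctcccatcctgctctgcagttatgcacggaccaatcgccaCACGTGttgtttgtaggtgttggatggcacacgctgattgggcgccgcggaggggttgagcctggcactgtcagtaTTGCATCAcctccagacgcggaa
Farsb, chr1:78488868-78489047, minus strand: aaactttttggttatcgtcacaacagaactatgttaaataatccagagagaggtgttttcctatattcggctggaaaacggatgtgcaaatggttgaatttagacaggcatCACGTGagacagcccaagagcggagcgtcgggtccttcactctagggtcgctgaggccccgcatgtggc

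The response element core starts 30 bases before the start in Gars and 15 before it in Tars, and Aars holds it both 112 bases before and at base 10 after the start. In Iars it lies at base 8 after the start. The E-box starts 146 bases before the start in Aars, 69 in Iars and 39 in Farsb, and at base 20 after it in Tars. In all 19 of the 28 genes matched a RefSeq promoter window, which spans 250 bases before to 50 after the start. The rest were not searched, so a gene not named here may lack a window rather than a motif. Within that window, CACGTG was found in 5 genes (Aars, Ears2, Farsb, Iars and Tars) and in 8.09% of the 27025 genes in the table, or 7.15% of its windows. TGATGNAA was found in 5 genes (Aars, Gars, Iars, Tars and Yars) and in 4.51% of genes, or 3.97% of windows. Yars, with the response element core, rose only 1.60-fold from wild type to malignant, and Ears2, with an E-box, stayed below the filter at every stage. A match is a run of letters and was not tested for binding.

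In premalignant cells 11 of 26 genes were already higher than in wild type and 0 were lower. That is 42.3%, where 12.7% of all tested genes were higher and 14.1% lower. The median log2 change was 0.48 (1.40-fold) against −0.054 over all genes, and 22 of 26 changes were above 0 against 44.9% of all genes. Through representative probe sets 0 of 26 reached 2-fold, against 5.72% of all genes. On other probe sets Eprs rose 2.42-fold (limma, adjusted p = 0.0093) and Aimp2 2.04-fold (adjusted p = 0.0036). In 9 genes the groups did not overlap, against 11.2% of all genes. The 11 were Rars, Gars, Sars2, Aimp2, Kars, Farsb, Eprs, Farsa, Iars, Fars2 and Nars.

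Aimp2, a scaffold protein of the complex, had wild type values of 7.31, 7.01, 7.39 and 7.39 and premalignant values of 7.87, 7.95, 8.19, 8.25 and 7.96, with no overlap. It rose 1.70-fold (log2 0.77, SE 0.14, adjusted p = 0.0027), and reached 8.31 ± 0.33 (SD, n = 13) in lymphomas. The other scaffold protein, Aimp1, gave log2 0.46 at this step (adjusted p = 0.092) and passed when either of 2 arrays was left out. These were wild type replicate 1, at 8.43 against 7.81 to 7.84 in the other 3 (adjusted p = 0.032), and premalignant replicate 5 (adjusted p = 0.035).

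The count at the first step depended on single arrays and on scaling. It was 5 with wild type replicate 3 left out, 6 with wild type replicate 4 left out and also 6 with premalignant replicate 3 left out, and 2 with arrays centred on the hybridisation spikes, which were Gars and Rars. Spike centring moved the median of all genes from −0.054 to 0.21 and that of the synthetases from 0.48 to 0.74, so their distance was 0.54 and 0.53. Other calls ended when a single array was left out. For Fars2 these were wild type 1, 3 and 4 and premalignant 1, 2 and 3 (adjusted p up to 0.11), and for Iars wild type 1, 3 and 4 and premalignant 3 and 4 (up to 0.058). For Nars they were wild type 1 and 3 and premalignant 3 and 4 (up to 0.069), and for Farsa wild type 1, 2 and 4 and premalignant 2 (up to 0.082). For Sars2 they were wild type 2, 3 and 4 and premalignant 4 (up to 0.059), for Kars wild type 3 and 4 and premalignant 3 (up to 0.072), and for Farsb wild type 4 (0.052). In the other direction, Qars passed with wild type 1 or premalignant 5 left out (adjusted p = 0.029 and 0.034) and Cars with wild type 4 left out (0.026).

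From premalignant cells to lymphomas 9 of 26 genes were higher and 0 were lower. That is 34.6%, where 24.8% of all tested genes were higher and 17.3% lower. The median log2 change was 0.38 (1.30-fold) against 0.089 over all genes. In 4 genes (Aars, Eprs, Gars and Lars) the groups did not overlap on the representative probe set, against 6.28% of all genes. The other 5 were Tars, Cars, Iars2, Tars2 and Rars. Cars, the cysteine enzyme, rose 1.48-fold (adjusted p = 0.025), a call lost without premalignant replicate 1, 3 or 5 (adjusted p up to 0.065). Kars passed with premalignant replicate 1 left out (adjusted p = 0.028). Under spike centring Cars, Rars and Tars2 lost their calls, with adjusted p from 0.065 to 0.13. With arrays centred on their median, 16 of 26 genes were higher at this step. That scaling moved the median of all genes from 0.089 to 0.19.

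Eprs, Gars and Rars passed at both steps. Aimp2, Farsa, Farsb, Iars, Kars, Nars and Sars2 passed at the first and in all, Aars, Cars, Iars2, Lars, Tars and Tars2 at the second and in all, and Aimp1, Hars, Qars, Rars2 and Yars only from wild type to malignant. These groups depend on the probe set. With probe sets averaged, Nars and Aimp2 also passed at the second step (adjusted p = 0.0018 and 0.022), and the second Nars probe set did not pass at the first (adjusted p = 0.15). Passing at 1 step is not a difference between steps, and the steps share the premalignant arrays. A contrast of the steps in 1 fit over all 3 groups passed for 1 of 26 genes, where 5.56% of all genes passed. That gene was Aars, whose second step exceeded its first by log2 1.08 (SE 0.31, adjusted p = 0.042). The call was lost in each of 6 fits that left out a single array, namely wild type 1, 2 and 4 and premalignant 3, 4 and 5, with adjusted p from 0.058 to 0.16. It was also lost with no filter (0.065), under spike centring (0.78) and with probe sets averaged (0.20), where Tars2 passed instead (0.049). On the second Aars probe set premalignant replicate 1 lay at 7.61, within the lymphoma range of 7.11 to 8.16. Fars2, the mitochondrial phenylalanine enzyme, was the only other gene at an unadjusted p under 0.05, in the opposite direction (log2 −0.65, SE 0.31, adjusted p = 0.23).

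**Figure D2:**
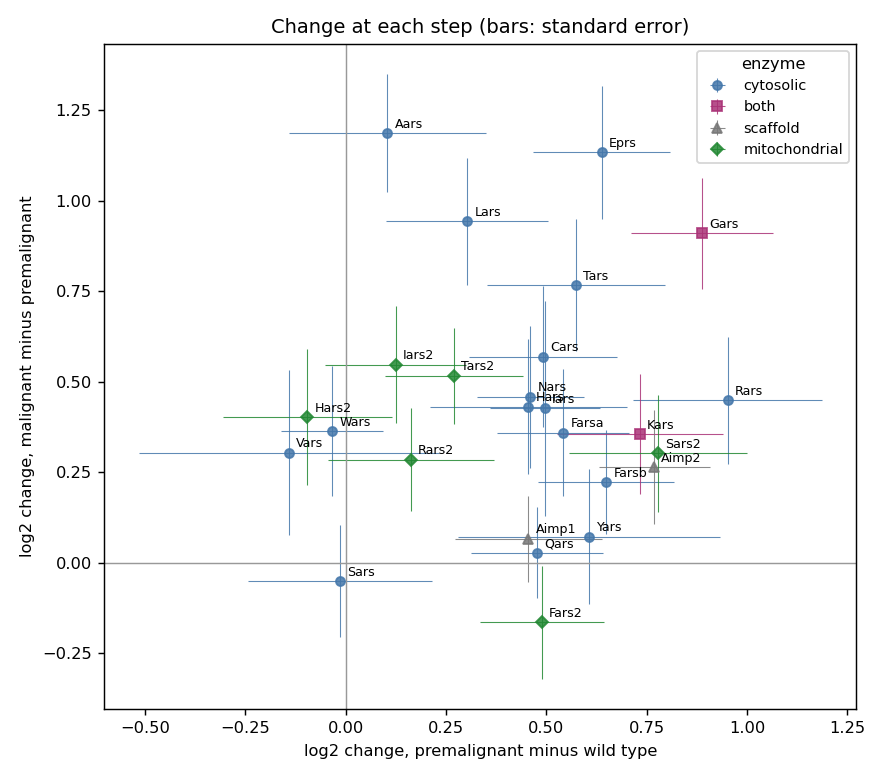
Fitted log2 change of each of the 26 genes from wild type to premalignant (horizontal axis) and from premalignant to malignant (vertical axis), with standard errors as bars and the class of each gene as symbol. Aars and Lars lie high and to the left, Rars, Kars, Sars2 and Aimp2 to the right, and Gars and Eprs high on both axes. The axes share the premalignant arrays, so errors in their mean move a point along a falling diagonal.

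Among the 16 cytosolic enzymes, 6 were higher at each step and 13 from wild type to malignant, with median log2 changes of 0.48, 0.43 and 0.91. Over all genes 12.7%, 24.8% and 31.8% were higher in these comparisons. Of 8 mitochondrial enzymes 6 were tested, of which 2, 2 and 4 were higher, with medians of 0.22, 0.35 and 0.56. As a median over enzymes on each array, relative to the wild type means, the cytosolic set stood at 0.49 ± 0.20 (SD, n = 5) in premalignant cells and 0.92 ± 0.27 (n = 13) in lymphomas. The mitochondrial set stood at 0.34 ± 0.22 and 0.59 ± 0.16. The cytosolic median exceeded the mitochondrial one in 12 of 13 lymphomas. With wild type SDs of 0.053 and 0.20, and 6 mitochondrial enzymes, the difference between the sets is a description and was not tested. Under spike centring the overall medians were 1.30 and 0.95, and the cytosolic one remained the larger.

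**Figure D3:**
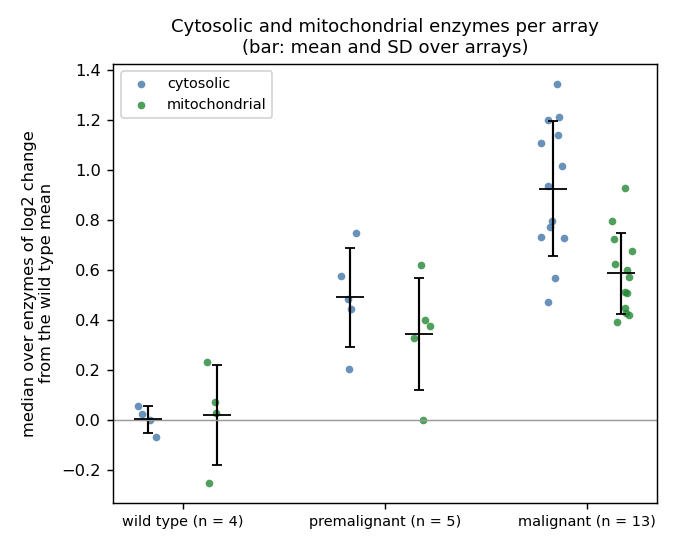
Median log2 change from the wild type mean over the 16 cytosolic and the 6 tested mitochondrial enzymes, 1 point per array, with mean and SD over arrays as bars. Both sets rise by stage, and the cytosolic medians of lymphomas spread between 0.47 and 1.34.

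For 6 amino acids genes of both the cytosolic and the mitochondrial enzyme were tested. Sars, the cytosolic serine enzyme, did not pass in any comparison, with means of 8.05 ± 0.33, 8.03 ± 0.40 and 7.98 ± 0.24 over the 3 stages and a wild type to malignant log2 change of −0.065 (95% interval −0.39 to 0.26), a change that lay above 0 under median and spike centring. Its mitochondrial counterpart Sars2 rose 2.11-fold (log2 1.08, SE 0.21, adjusted p = 0.00028), from wild type values of 4.91, 3.61, 4.22 and 4.19 to lymphoma values from 4.92 through 5.10 to 6.01. The wild type values of Sars2 lie close to the filter level. Cytosolic Hars rose 1.85-fold while Hars2 gave log2 0.31 (adjusted p = 0.21), at values near the filter. Both Tars and Tars2 rose, by log2 1.34 and 0.79, as did Iars and Iars2, by 0.92 and 0.67, and Rars and Rars2, by 1.40 and 0.45. Rars2 lost its call without wild type replicate 4 (adjusted p = 0.0565), as Yars did without wild type replicate 3 (adjusted p = 0.073). For phenylalanine, the cytosolic subunits Farsa and Farsb rose by 0.90 and 0.87, while mitochondrial Fars2 gave 0.32 (adjusted p = 0.11). The differences within amino acids were not tested.

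The 8 genes of the symbol list that belong to the multisynthetase complex, a set that leaves out Eef1e1, were all higher in lymphomas than in wild type cells, with changes from log2 0.50 (Qars, the glutamine enzyme) to 1.77 (Eprs) and a median of 1.06. Of the 11 free cytosolic enzymes 8 were higher, with a median of 0.89. That set leaves out Gars (log2 1.80) because it serves both compartments, whereas Kars, which also serves both, is counted in the complex. The count of complex genes was 5 at the first step and 3 at the second, against 3 and 3 of the free enzymes. Of all genes 12.7% and 24.8% were higher at these steps, and 31.8% from wild type to malignant. Cytosolic enzymes of class I and class II, which differ in the fold of their catalytic domain, gave 6 of 8 and 6 of 7 genes higher in all, with medians of 0.80 and 0.90. These class counts leave out Eprs, which holds an enzyme of each class, and Gars and Kars, which are of class II.

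4 enzymes passed no comparison between stages through their representative probe set. Vars, the valine enzyme, had wild type values of 8.98, 9.60, 8.36 and 8.47, premalignant values of 9.96, 8.48, 8.56, 8.45 and 8.10 and lymphoma values from 8.40 through 8.99 to 9.49. Its spread outside the lymphomas was wide, and without premalignant replicate 1 it passed at the second step (adjusted p = 0.0074). Wars, the tryptophan enzyme, which interferon is known to induce, had means of 7.06 ± 0.15, 7.03 ± 0.13 and 7.39 ± 0.40 (adjusted p = 0.16 from wild type to malignant). Of its 4 probe sets 1 passed, with a rise of log2 0.59 at the second step (adjusted p = 0.014) and 0.58 in all (adjusted p = 0.013), and none of the other 3 passed in any comparison. Sars and Hars2 were the others, and Hars2 passed at the second step with premalignant replicate 2 left out (adjusted p = 0.034).

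Probe sets of 1 gene did not always move together. Of 11 genes with several tested probe sets, Farsb, the beta subunit of the cytosolic phenylalanine enzyme, was called in both directions from wild type to malignant. Its representative probe set rose from 7.30 ± 0.20 to 8.17 ± 0.26, and 2 further probe sets rose by log2 0.59 and 1.17. The fourth, 1430986_at, fell from 6.43 ± 0.56 in wild type and 6.27 ± 0.25 in premalignant cells to 4.53 ± 1.60 in lymphomas. On that probe set lymphomas 11 and 13 stayed high at 7.22 and 8.00, while the other 11 lay between 3.02 and 5.70. Averaging the probe sets of Farsb ended its call (adjusted p = 0.44). Qars also lost its overall call when probe sets were averaged (adjusted p = 0.066), and probe sets of Qars, Sars, Tars2 and Wars differed in sign in at least 1 comparison.

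**Figure D4:**
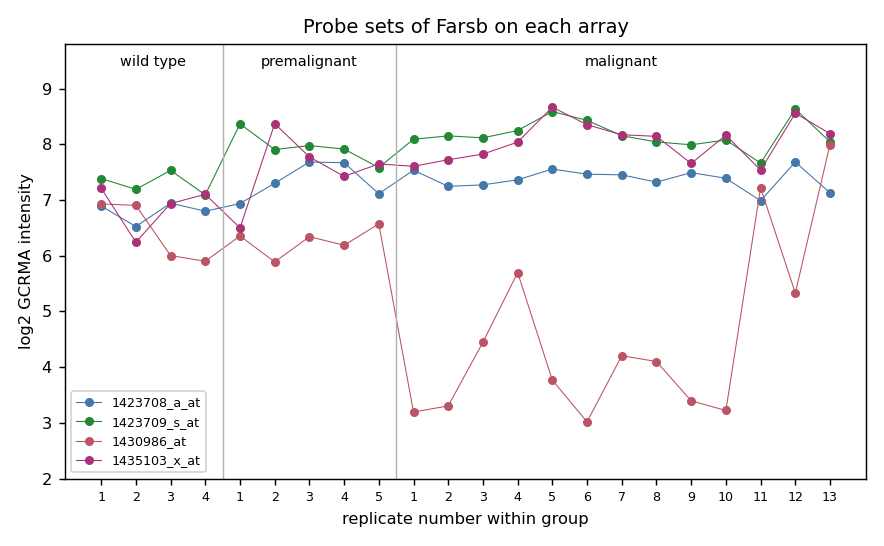
Log2 intensity of the 4 Farsb probe sets on each array, by stage and replicate number, with lines that join the arrays only to guide the eye. The probe set 1430986_at drops in most lymphomas and stays high in lymphomas 11 and 13, while the others stay between 6.99 and 8.67 in all lymphomas.

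Within the lymphomas, the levels of the 26 genes were only weakly correlated with each other. Over 325 pairs of genes the median Pearson correlation across the 13 lymphomas was 0.14, and 63.4% were positive, as a description over pairs that share arrays. The SD among lymphomas ranged from 0.18 (Aimp1) to 0.69 (Iars), against a median of 0.33 over all tested genes. Iars, the isoleucine enzyme, had wild type values of 7.14, 7.36, 7.26 and 7.20, premalignant values of 7.59, 7.97, 7.85, 7.81 and 7.47, and lymphoma values that fell into separate clusters. Lymphomas 4, 8 and 9 lay at 7.19, 7.29 and 6.67, within or below the wild type range, and the other 10 between 8.15 and 8.84. The second Iars probe set placed the same 3 lymphomas lowest, at 5.61, 5.94 and 6.09, with the others from 6.68 to 7.37. Its call from wild type to malignant (adjusted p = 0.021) did not hold with wild type replicate 1 left out (adjusted p = 0.054).

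The same 3 lymphomas had low values for genes across chromosome 13, where Iars lies. For each lymphoma and chromosome, the median deviation of the tested genes from their median level among lymphomas was taken, without the synthetases. The comparison was added after the values were seen. On chromosome 13 the median deviation was −0.58, −0.32 and −0.73 in lymphomas 4, 8 and 9 and 0 to 0.18 in the other 10. Within those 10, Iars followed the chromosome median with Pearson r = 0.69 (permutation p = 0.024) and Spearman rho = 0.63 (permutation p = 0.058). Those 10 were set apart by their Iars level after the values were seen, so these unadjusted p-values are a description. Of the 10 tested genes whose pattern over the 13 lymphomas was most like that of Iars by Pearson correlation, 8 lie on chromosome 13, which holds 3.57% of tested genes. The closest were Bicd2 (r = 0.96), Sfxn1 (0.96) and Prelid1 (0.96). With each gene's chromosome median subtracted, Iars rose from premalignant to malignant (adjusted p = 0.032), where it had not passed before (adjusted p = 0.26). DNA copy number was not measured.

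The same comparison was made for every synthetase. The median correlation with the own-chromosome median over the 13 lymphomas was 0.58 for the 26 genes and 0.32 over all 6249 genes so examined. 5 of 26 (19.2%) passed at a permutation p adjusted over all of these genes, where 7.68% of all did. Beside Iars these were Nars on chromosome 18 (r = 0.82, rho = 0.64, permutation p = 0.00039, adjusted p = 0.018), Farsb on chromosome 1 (r = 0.82, rho = 0.73, permutation p = 0.0015, adjusted p = 0.031), Aimp2 on chromosome 5 (r = 0.78, rho = 0.77, permutation p = 0.00012, adjusted p = 0.013) and Gars on chromosome 6. Without the 2 lymphomas farthest from the median, r was 0.66 for Nars, 0.56 for Farsb and 0.69 for Aimp2. For Farsb the chromosome 1 median ran only from −0.058 in lymphoma 11 to 0.052 in lymphoma 5. Chromosome medians were below 0 on 14 and 16 of 19 autosomes in lymphomas 7 and 13, so these arrays were low on most chromosomes at once. They were below 0 on only 1 of 19 in lymphoma 4 and also in lymphoma 5. In lymphoma 11 they were below 0 on 11 of 19, against 10 in lymphomas 3 and 6, and ranged from −0.21 to 0.37. The part of these shifts in the correlations was not tested.

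On chromosome 6 lymphomas 2, 6 and 11 stood apart, with medians of 0.37, 0.25 and 0.25, and their Gars levels were 9.42, 9.49 and 9.93. Over all 13 lymphomas the correlation of Gars with the chromosome median was 0.73 (rho = 0.91, permutation p = 0.0030, adjusted p = 0.044). In the other 10 lymphomas Gars ranged from 8.74 to 9.42 and followed the chromosome median with r = 0.94 (permutation p = 7.0e-05). Those 10 were set apart by a cut of 0.2 on that same median after the values were seen. The p-value was not adjusted and is a description. In these 10 the chromosome median ran only from −0.14 to 0, lowest in lymphomas 13 and 7, which were low on most chromosomes. Tars was highest, at 8.26, in lymphoma 1, the only one with a raised chromosome 15 median (0.47). Its correlation of 0.71 (rho = 0.45, adjusted p = 0.063) was 0.27 without lymphomas 1 and 11 and thus rests on them. Aimp2 was highest, at 9.06 and 8.54, in lymphomas 9 and 8, which had chromosome 5 medians of 0.39 and 0.34, and the other 11 ranged from 7.79 to 8.52.

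**Figure D5:**
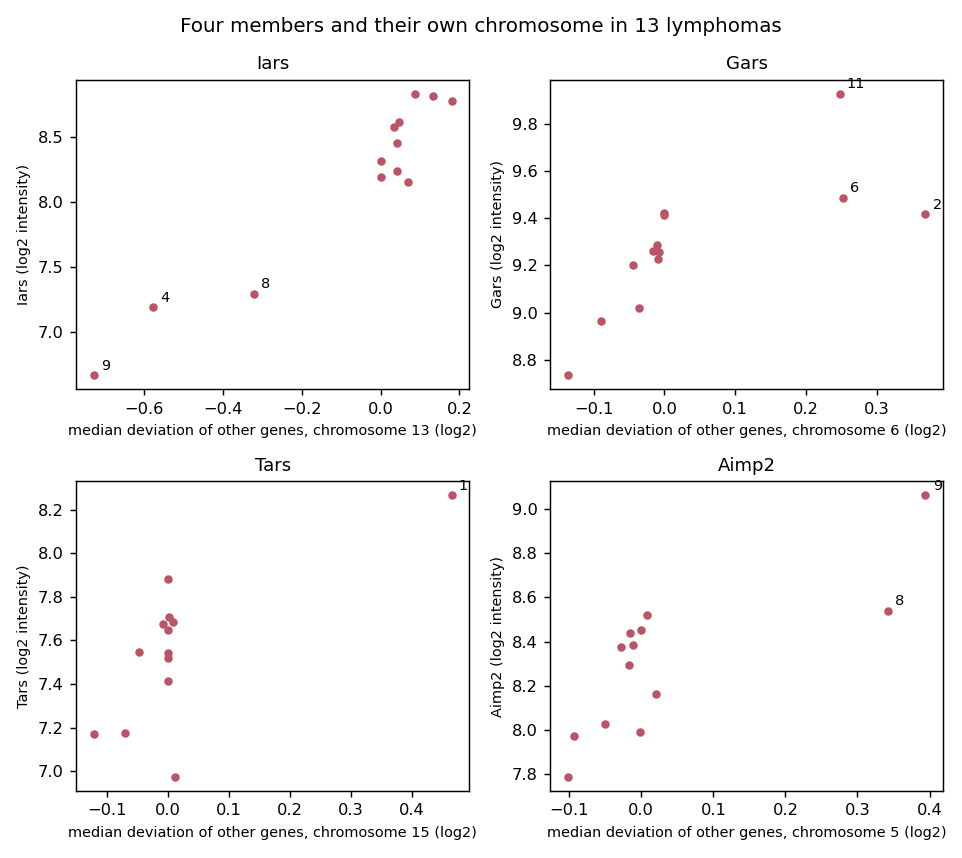
Log2 level of Iars, Gars, Tars and Aimp2 in the 13 lymphomas against the median deviation of other tested genes on the same chromosome. Points are lymphomas, numbered where that median is beyond 0.2 in size. Lymphomas 4, 8 and 9 lie low on both axes for Iars, and lymphoma 1 lies alone at the right for Tars.

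No synthetase passed the adjusted threshold for a correlation with Myc or with the measure of RNA integrity across lymphomas. Against Myc, 0 of 26 genes passed (0% of all genes did), and 18 correlations were positive. The largest in size were those of Gars (r = 0.62, rho = 0.36), Vars (r = 0.60, rho = 0.59) and Kars (r = 0.59, rho = 0.63). Without lymphomas 11 and 13 their r was 0.027, 0.45 and 0.33, so that of Gars rests on those arrays. Other genes correlated more closely without them, such as Hars2 (r = 0.76 against 0.11) and, in the negative direction, Iars (−0.66 against −0.47). Against the beta-actin difference 0 of 26 passed (0% of all genes). The correlations largest in size were those of Farsb (r = 0.70, rho = 0.70) and Eprs (r = 0.69, rho = 0.52). Without lymphomas 3 and 5, r was 0.70 for Farsb and 0.43 for Eprs.

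Some genes that work beside the synthetases rose as well. Of 7 tested partners and related enzymes, 2, 3 and 4 were higher at the first step, the second step and in all, where 12.7%, 24.8% and 31.8% of all genes were higher, and 0 were lower. Eef1e1, a further protein of the multisynthetase complex, rose 2.12-fold at the first step (adjusted p = 0.00034), from 7.07 ± 0.15 to 8.15 ± 0.16, and stood at 8.15 ± 0.63 in lymphomas. Aarsd1, an editing enzyme that clears mischarged alanine tRNA, rose 2.57-fold from wild type to malignant (adjusted p = 6.2e-07), and Qrsl1, which helps to make glutamine tRNA in mitochondria, 1.67-fold at the second step (adjusted p = 0.0018).

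Among 64 tested genes of tRNA transcription and maturation, 12 rose and 0 fell at the first step, and 32 rose and 1 fell at the second. In all 38 rose and 1 fell. Of all genes 12.7%, 24.8% and 31.8% were higher in these comparisons, and 14.1%, 17.3% and 29.7% lower. Median log2 changes were 0.27, 0.47 and 0.63, against −0.054, 0.089 and 0.041 over all genes. Xpot, which exports tRNA from the nucleus, rose 5.00-fold from wild type to malignant (log2 2.32, adjusted p = 2.3e-07). Pus7, a pseudouridine synthase, rose 4.40-fold and Mettl1, a tRNA guanine methyltransferase, 4.25-fold. Maf1, a repressor of RNA polymerase III, fell 1.61-fold (adjusted p = 0.0090).

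Of 31 genes of the ATF4 amino acid response on the array, 14 lay below log2 4 in every group mean, among them Trib3, Chac1 and Atf5, and 17 were tested. At the first step 9 rose and 2 fell, at the second 9 rose and 1 fell, and in all 9 rose and 3 fell. Of all genes 12.7%, 24.8% and 31.8% were higher in these comparisons, and 14.1%, 17.3% and 29.7% lower. Median log2 changes were 0.69, 0.59 and 0.63, against −0.054, 0.089 and 0.041 over all genes. Slc7a5, which takes up leucine and other large amino acids, rose 4.61-fold at the first step and 12.9-fold in all (adjusted p = 8.6e-13). Psat1, of serine synthesis, rose 4.79-fold and 9.22-fold. Asns, asparagine synthetase, was below log2 4 in wild type cells and rose at least 7.13-fold in lymphomas (adjusted p = 4.8e-08). Ddit3, a stress response transcription factor, fell 1.82-fold at the first step (adjusted p = 0.037), and Ppp1r15a, which helps restart translation after stress, fell at least 2.94-fold in all (adjusted p = 5.5e-06). Atf4 itself stood at 9.04 ± 0.41, 8.90 ± 0.31 and 9.04 ± 0.25 over the stages. Of 17 tested interferon response genes 0 rose, and 8, 15 and 17 fell, where 14.1%, 17.3% and 29.7% of all genes were lower. Their median was −1.78 from wild type to malignant, against 0.041 over all genes.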

How the data were processed

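Per the submitters' processing notes, the authors used GCRMA to compute the deposited intensities. The method corrects background by probe sequence, brings arrays to 1 distribution and summarises probe sets. The sources used here do not give its version, or say whether all 22 arrays were processed together. The deposited intensities span a linear range and were converted to log2.

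Of 22690 probe sets, 20380 had 1 gene symbol in the platform annotation, 691 several, 1555 none, and 64 were controls. Probe sets above log2 4 on at least 4 arrays were kept (9832 with 1 symbol). Each of the 6437 genes was tested through its probe set of highest mean, with limma 3.58.1 in R 4.3.3 (lmFit and eBayes, two-sided), each comparison on its own groups and the difference between steps on all 3. P-values were adjusted by Benjamini-Hochberg over all genes and called under 0.05. For folds, group means under log2 4 were raised to 4, and the result is given as a lower bound. Correlations across lymphomas used 100000 permutations, two-sided, in 3 families (Myc, beta-actin, own chromosome), each adjusted over all genes examined, in Python 3.11.15 with numpy 2.4.6.

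The synthetases were chosen by symbol, and every tested one may be named. From each related list up to 3 called genes in the main direction and 1 in the other were eligible, by size of change. Atf4, the undetected genes of its list and the genes most like Iars were added after values were seen. Genes and lists were chosen with earlier results of these data known. The chromosome comparison was likewise added after values were seen. Alternatives were no filter, centring on medians, spikes or chromosomes, the mean over probe sets, 1 fit over 3 groups, a replicate block and leaving out arrays. The fits were tested on simulated data with 200 of 6437 genes raised by at least 2-fold and noise drawn separately for each gene. The rates that follow therefore do not cover smaller changes, falls, or shifts shared across an array or chromosome. Of genes changed 2-fold, 83%, 87% and 74% were recovered for premalignant against wild type, malignant against premalignant and malignant against wild type, and 5.8%, 8.3% and 8.1% of the calls were false.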

Additional observations from a re-analysis of the deposited data

Results flagged for a closer look

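Over 52 groups of 4 or 5 arrays (26 genes in wild type and premalignant cells), 3 held an array far from the rest by Dixon's criterion, which chance meets in about 1 group in 20. Aimp1 lay at 8.43 on wild type replicate 1, against 7.84 on the next array. Hars2 lay at 4.77 on premalignant replicate 2, against 4.13 on the next, near the filter level. Vars lay at 9.96 on premalignant replicate 1, against 8.56 on the next. That array had the lowest mean correlation with its group among the premalignant arrays (0.938).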

How the results depend on the processing

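No synthetase was called lower under any alternative run. Of the values for single genes, 1596 kept their call, 34 passed newly, 86 no longer passed and 0 changed direction past the threshold. With arrays centred on spikes, 2 synthetases were higher at the first step, the cytosolic and mitochondrial medians were 0.74 and 0.47 at that step and 1.30 and 0.95 from wild type to malignant, and 0 passed for the difference between steps. Among all genes, spike centring gave 465 higher and 109 lower at the first step against 818 and 907, 1193 and 549 against 1597 and 1114 at the second, and 2360 and 781 against 2045 and 1911 from wild type to malignant. Median centring gave 16 synthetases higher at the second step, and 2048 genes higher and 904 lower. Leaving out single wild type or premalignant arrays (no lymphoma was left out) gave 5 to 14 synthetases higher at the first step, 7 to 10 at the second, 20 to 21 in all and 0 to 1 for the difference between steps, which was also 0 with no filter. Replicate numbers did not pair the arrays: same-numbered deviations correlated between −0.11 and 0.21, and 1 of 13 pairs was the best match of its number. With the replicate number as a block, 11, 6 and 14 synthetases were higher, and 0 for the difference between steps. The cause of these shifts was not tested. Sars2, Hars2, Yars and Cars lie near the filter level, where signal is closest to background.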
